A study of Mus musculus with 2 samples.

Results

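The Speer genes (named for spermatogenesis-associated glutamate-rich proteins) form a multicopy family of rodents, and their messenger RNA was followed here through the germ cells of the adult mouse testis. Of the 51868 rows of the count table, 14 carry a Speer name, and 11 of these have no -ps (pseudogene) in the symbol. The 10 with the most unique molecular identifiers (UMIs, the tags that count single captured RNA molecules) over all 2552 cells of both animals were taken as members. They were therefore chosen by their summed UMIs, which are given as a description only. Speer2 held 7206 UMIs, Speer4e 3360, Speer4b 1234, Speer4f1 839, Speer4f2 700, Speer1 684, Speer3 591, Speer4c 344, Speer4a 339 and Speer4d, the last to enter, 272. The row just outside was Speer4cos with 9 UMIs, which is annotated antisense over Speer4c. Together the 10 genes held 15569 UMIs, or 0.0270% of all, and 1989 cells (77.9%) had at least 1 of them.

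The tissue, labelled whole testis, came from 2 wild-type C57Bl/6J Crl mice, described in the study as littermates, at 8 weeks of age and without any treatment. Per the methods, a piece of testis from each mouse was digested to single cells, the suspension was strained in a way meant to keep down the number of somatic cells, and 1 droplet library of the 3′ ends of messenger RNA was made per mouse. Cells were not sorted, and the comparisons made here run along the order of differentiation. Mouse 1 gave 1237 cells and 27450497 UMIs, and mouse 2 gave 1315 cells and 30302332 UMIs.

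Sperm arise from diploid spermatogonia, which become spermatocytes, pass through the long pachytene stage and the meiotic divisions, and form haploid round spermatids that elongate and condense. Speer proteins share sequence with Dlg5, a scaffold protein of cell contacts, and the family has expanded by duplication within rodents. Because the copies are so alike, both their sequences and the uniqueness of the reads that count them belong to any description of their levels.

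In GRCm38, 9 of the 10 genes lie on chromosome 5, between base 11341516 and base 27501438, a stretch of 16.2 Mb. Speer2, the most abundant, lies alone on chromosome 16 (69856874 to 69863744, minus strand). It has 6 annotated exons in its longest coding transcript, and the others have 5. Speer1 (chr5:11341516-11346286) and Speer3 (chr5:13791619-13796820) lie at the proximal end of the stretch, both on the plus strand. They are followed by Speer4e (chr5:14933221-14938429, minus), Speer4d (chr5:15619064-15623864, plus), Speer4c (chr5:15709501-15714271, minus), Speer4f2 (chr5:17373180-17378028, plus) and Speer4f1 (chr5:17476098-17480936, plus). The last are Speer4a (chr5:26032846-26039558, minus) and Speer4b (chr5:27495639-27501438, minus). GENCODE classes all 10 as protein coding.

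By their coding sequence the genes fell into 2 sets. Among Speer1, Speer2 and Speer3 the identity was 84.5% to 90.2%, with Speer2 and Speer3 the closest pair. Among the 7 Speer4 genes it was 84.3% to 98.8%, with Speer4f1 and Speer4f2 the closest. Between the sets it was 73.0% to 80.6%. The sets are shown by 60 bases from the first stretch that all 10 coding sequences share without a gap, where capitals mark bases that differ from the most common base of the 10 genes.
Speer2: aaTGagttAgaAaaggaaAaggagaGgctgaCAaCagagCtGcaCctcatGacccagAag
Speer1: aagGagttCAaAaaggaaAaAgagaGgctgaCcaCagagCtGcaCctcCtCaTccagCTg
Speer3: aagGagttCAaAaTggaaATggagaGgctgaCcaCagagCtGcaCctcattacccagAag
Speer4e: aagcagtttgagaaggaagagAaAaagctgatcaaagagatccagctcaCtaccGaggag
Speer4b: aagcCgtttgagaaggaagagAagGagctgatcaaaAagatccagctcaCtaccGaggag
Speer4f1: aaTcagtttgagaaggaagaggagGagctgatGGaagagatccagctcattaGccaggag
Speer4c has the same letters as Speer4e in this window. The window of Speer1 differed from the most common bases at 17 of 60 positions, those of Speer2 and Speer3 at 14 each, and those of the Speer4 genes at 4 to 6. Since 7 of the 10 genes are Speer4 genes, the most common base is largely theirs, which by itself lowers their counts. Where 2 bases were equally common, that of Speer2 was taken, which raises the counts of some Speer4 genes.

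The promoters sorted the genes differently. RefSeq gives 11 starts for the 10 genes, 2 of them for Speer1, and 300 bases (250 before and 50 after each start) were compared. The window of Speer2 and that of the first Speer1 start were 93.5% identical over 275 bases. Neither aligned with any of the other 9 windows over more than 29 bases. Those 9, which include the second Speer1 start, Speer3 and all Speer4 genes, shared 82.5% to 98.7% identity with each other over 116 to 300 bases. Speer3 thus has the coding sequence of the first set and a promoter window of the kind found at the Speer4 genes. The windows below, from RefSeq on GRCm38.p6, are shown because the 2 kinds of promoter are set beside the timing of the RNA further on. Capitals mark, on either strand, the letters TGATGTCA (a variant of the cyclic AMP response element, which does not overlap the other motif) and CAACTG (a core recognised by MYB proteins).
Speer2, chr16:69863695-69863994, minus strand: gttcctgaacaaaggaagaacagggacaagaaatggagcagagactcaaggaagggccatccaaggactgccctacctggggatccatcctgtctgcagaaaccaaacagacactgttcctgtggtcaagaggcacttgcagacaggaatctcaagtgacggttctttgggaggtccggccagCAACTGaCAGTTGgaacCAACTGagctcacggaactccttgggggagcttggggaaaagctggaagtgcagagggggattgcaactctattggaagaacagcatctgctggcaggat
Speer1 start 1, chr5:11340158-11340457, plus strand: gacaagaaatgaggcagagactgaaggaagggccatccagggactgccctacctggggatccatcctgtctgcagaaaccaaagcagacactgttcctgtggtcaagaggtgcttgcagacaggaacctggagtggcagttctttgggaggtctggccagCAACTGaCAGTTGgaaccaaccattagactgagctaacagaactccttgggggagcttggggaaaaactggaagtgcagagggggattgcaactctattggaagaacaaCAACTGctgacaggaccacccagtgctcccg
Speer1 start 2, chr5:11341211-11341510, plus strand: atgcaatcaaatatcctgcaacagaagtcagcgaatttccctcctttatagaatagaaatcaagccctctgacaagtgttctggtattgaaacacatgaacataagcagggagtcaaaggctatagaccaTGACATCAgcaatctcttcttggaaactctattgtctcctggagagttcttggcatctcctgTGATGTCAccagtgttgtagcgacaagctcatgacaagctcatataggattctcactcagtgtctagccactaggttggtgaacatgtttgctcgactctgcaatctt
Speer3, chr5:13791369-13791668, plus strand: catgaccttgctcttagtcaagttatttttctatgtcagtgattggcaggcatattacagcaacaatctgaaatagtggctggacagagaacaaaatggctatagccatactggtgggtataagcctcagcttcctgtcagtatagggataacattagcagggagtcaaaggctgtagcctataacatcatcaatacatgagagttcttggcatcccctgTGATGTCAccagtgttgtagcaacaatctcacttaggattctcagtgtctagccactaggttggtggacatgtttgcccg
Speer4e, chr5:14938426-14938725, minus strand: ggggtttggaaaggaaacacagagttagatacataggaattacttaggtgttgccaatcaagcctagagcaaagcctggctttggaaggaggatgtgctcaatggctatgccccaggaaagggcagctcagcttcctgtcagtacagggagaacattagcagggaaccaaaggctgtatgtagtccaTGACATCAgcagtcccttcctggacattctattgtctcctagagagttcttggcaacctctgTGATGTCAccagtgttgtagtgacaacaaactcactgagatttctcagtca
Speer4f1, chr5:17475872-17476171, plus strand: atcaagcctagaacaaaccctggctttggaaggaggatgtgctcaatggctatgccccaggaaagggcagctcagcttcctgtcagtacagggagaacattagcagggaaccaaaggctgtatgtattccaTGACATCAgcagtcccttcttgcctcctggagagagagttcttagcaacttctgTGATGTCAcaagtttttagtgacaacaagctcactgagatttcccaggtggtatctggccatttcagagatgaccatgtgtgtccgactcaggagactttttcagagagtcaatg
The letters TGATGTCA were found in all 9 windows of the second kind and in neither of the first, against 3.62% of all 32851 mouse promoter windows of this length. CAACTG was found 3 times each in Speer2 and the first Speer1 start, once in Speer4f2 and in none of the other 8 windows. Of all promoter windows, 13.7% hold it and 1.33% hold it at least 2 times. Both motifs were picked after the windows had been seen. The windows of each kind are alike in sequence, so shared letters in them are not independent observations to set against the share of all promoters. Of the 4 other motifs searched on both strands, the full element TGACGTCA was in 0 of the 11 windows (1.79% of all), GTTGCC, which is part of an X-box, in 6 (12.5% of all), CCAAT in 9 (37.4% of all) and TATAAA in 1 (13.6% of all). A match describes the letters only. Counts of 3′ ends do not tell which of the Speer1 starts was used.

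The near-identity of the copies limits how well they can be counted, since the authors' software leaves out reads that match several genes. For each gene the last 500 bases of the transcript with the longest coding sequence were divided into the 403 overlapping windows of 98 bases, the read length. All windows of Speer2, Speer4e and Speer3 occurred in no other annotated gene. The unique share was 96.3% in Speer4b, 91.6% in Speer4a and 77.2% in both Speer4f1 and Speer4f2, which share 92 windows with each other. It was 50.4% in Speer4d, 31.8% in Speer1 and 27.0% in Speer4c. Speer4c and Speer4d share 200 windows, and 275 windows of Speer1 also occur in the predicted gene Gm8922. In addition, 67 windows of Speer4c and 2 of Speer4d occur in transcripts of Speer4e, outside the 500 bases examined for Speer4e. Levels of these last 3 are therefore uncertain. Where genes are set side by side below, by UMIs, level or share, the order describes counted UMIs and carries this limit. The change of a single gene between cell groups is less exposed to the reads left out, since the same windows count in each. Only exact matches were searched. Reads of a near-identical copy counted for the wrong gene would change with that copy, and their share was not examined.

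**Figure D1:**
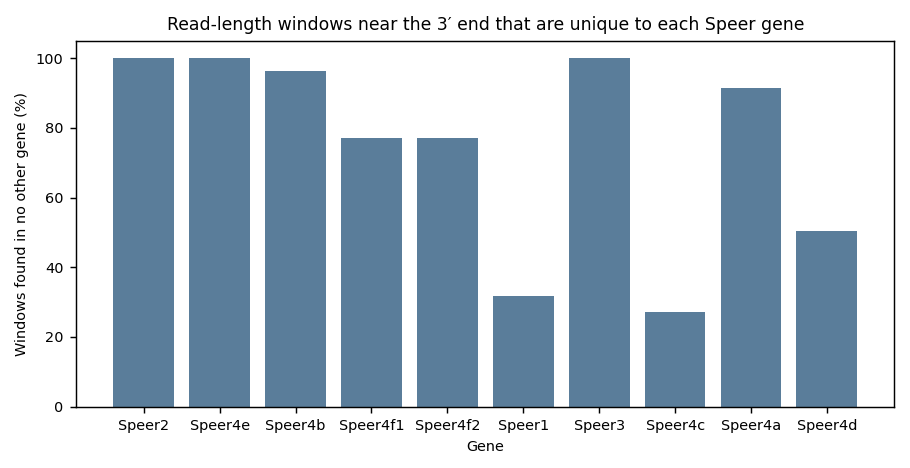
Share of the 403 read-length windows in the last 500 transcript bases (y axis, percent) that occur in no other annotated gene, for each Speer gene (x axis, in order of UMIs). The bars of Speer2, Speer4e and Speer3 reach 100%, and Speer4d, Speer1 and Speer4c stand at 50.4%, 31.8% and 27.0%.

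Cells were grouped by K-means clustering after the 14 Speer rows had been left out, so that the genes did not define the groups in which they were compared. The labelled tissue was borne out by its markers, with 6 clusters of germ cells holding 2533 of the 2552 cells. In order of median pseudotime (a distance along the differentiation path computed from the cells themselves) these were early spermatocyte-like cells (163), pachytene or later spermatocyte-like cells (527), an unnamed cluster (689), round spermatid-like cells (449) and 2 elongating or condensing spermatid-like clusters of 196 and 509 cells. The unnamed cluster had 4 of 12 pachytene markers and 0 of 12 round spermatid markers at 1.5 times the level of all cells, and its leading genes included 1700001F09Rik, Ssxb1 and Ssxb2. Its mean standardised marker level was nonetheless highest for round spermatids (0.325), followed by pachytene or later spermatocytes (0.272). It was left unnamed because too few markers of the best class passed, and it may hold spermatids. The cluster of 196 cells carried 12 of 12 elongating markers and 9 of 12 round spermatid markers. The remaining 19 cells were 7 Sertoli-like, 7 spermatogonium-like and 5 Leydig-like cells.

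The summed RNA of the 10 genes was higher in pachytene or later than in early spermatocyte-like cells. Averaged over each cluster, it was highest in the unnamed cluster and lower in round and elongating spermatid-like cells. Given as CPM, in which all UMIs of a group of cells are scaled to the same total, the sum was 128 in mouse 1 and 128 in mouse 2 in early spermatocyte-like cells. It was 337 and 348 in pachytene or later cells, 460 and 409 in the unnamed cluster and 238 and 233 in round spermatid-like cells. In the elongating clusters it was 64.3 and 54.5 in the smaller and 25.1 and 22.2 in the larger. The groups followed the same order in both mice, and the 95% Poisson intervals of the unnamed and the pachytene cluster did not overlap in either. Intervals of this kind, here and below, cover counting error only.

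Per cell the order of these groups changed. Pachytene or later cells had 11.4 and 11.8 Speer UMIs per cell in mouse 1 and mouse 2, and cells of the unnamed cluster 8.75 and 8.97. The pachytene cells also held more RNA tags in all, with means of 33900 and 34040 UMIs per cell against 19030 and 21930. Speer4e, in contrast to the sum, was higher per cell in the unnamed cluster (2.94 and 2.75 UMIs) than in the pachytene cluster (1.56 and 1.60).

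Nearly all cells of the middle stages held a Speer tag. The share of cells with at least 1 UMI of the 10 genes was 100% and 99.2% in the unnamed cluster of mouse 1 and mouse 2, with median depths of 18406 and 19371.5 UMIs per cell. After each cell had been thinned to 5000 UMIs the shares were 89.6% and 85.3% there, 76.3% and 82.2% in pachytene or later cells and 67.9% and 71.4% in round spermatid-like cells. In the larger elongating cluster they were 23.8% and 20.6% before thinning, at median depths of 11229 and 12453 UMIs, and 10.7% and 11% after it. Somatic cells, which should lack these RNAs and which the preparation was meant to keep low, were too few to set a background. Of the Sertoli-like cells, 2 of 6 in mouse 1 and 0 of 1 in mouse 2 had a Speer UMI at a median depth of 12039 UMIs, and of the Leydig-like cells 0 of 1 and 0 of 4 did at 9856. Over those 4 Leydig-like cells, 0 counts allow a level of up to 73.7 CPM. Of the spermatogonium-like cells, 2 of 3 in mouse 1 and 0 of 4 in mouse 2 had a Speer UMI, at a median depth of 10239 UMIs. Their 3 Speer UMIs were all of Speer2, too few to give a level. Several family members were seen together in 1 cell: of the thinned cells in the unnamed cluster, 57.3% in mouse 1 and 53.7% in mouse 2 held UMIs of 2 or more of the genes.

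Speer2 had a high level in early meiosis and a higher one in pachytene or later cells. Its level was 95.2 and 102 CPM in early spermatocyte-like cells of mouse 1 and mouse 2, 230 and 242 in pachytene or later cells, 120 and 127 in the unnamed cluster and 71.8 and 70.2 in round spermatid-like cells. In the elongating clusters it was 12.6 and 12.4 and then 13.0 and 12.9. The highest cluster was the pachytene cluster in both mice, 1.91 and 1.90 times the next, and the intervals did not overlap. On the log2 scale it rose by 1.52 (SE 0.14, edgeR adjusted p = 6.0e-09) from the early to the pachytene cluster and fell by 0.87 (SE 0.13, edgeR adjusted p = 2.7e-06) from there to the unnamed cluster. The rise was smaller with DESeq2 (1.22) and when scaled by total UMIs (1.25), and was called in both.

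Speer1 was the other gene with a high level in early meiosis. It stood at 24.0 and 20.6 CPM in early spermatocyte-like cells and at 26.1 and 20.4 in pachytene or later cells, in mouse 1 and mouse 2, and the intervals of these levels overlapped in each mouse. Its level was 9.35 and 6.72 in the unnamed cluster and 5.56 and 5.12 in round spermatid-like cells. The step into the unnamed cluster was a fall (log2 change -1.51, SE 0.28, edgeR adjusted p = 7.6e-05). Together Speer1 and Speer2 made up 93.5% and 95.2% of the Speer UMIs of early spermatocyte-like cells, 76.0% and 75.4% in the pachytene cluster, and 28.2% and 32.7% in the unnamed cluster.

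**Figure D2:**
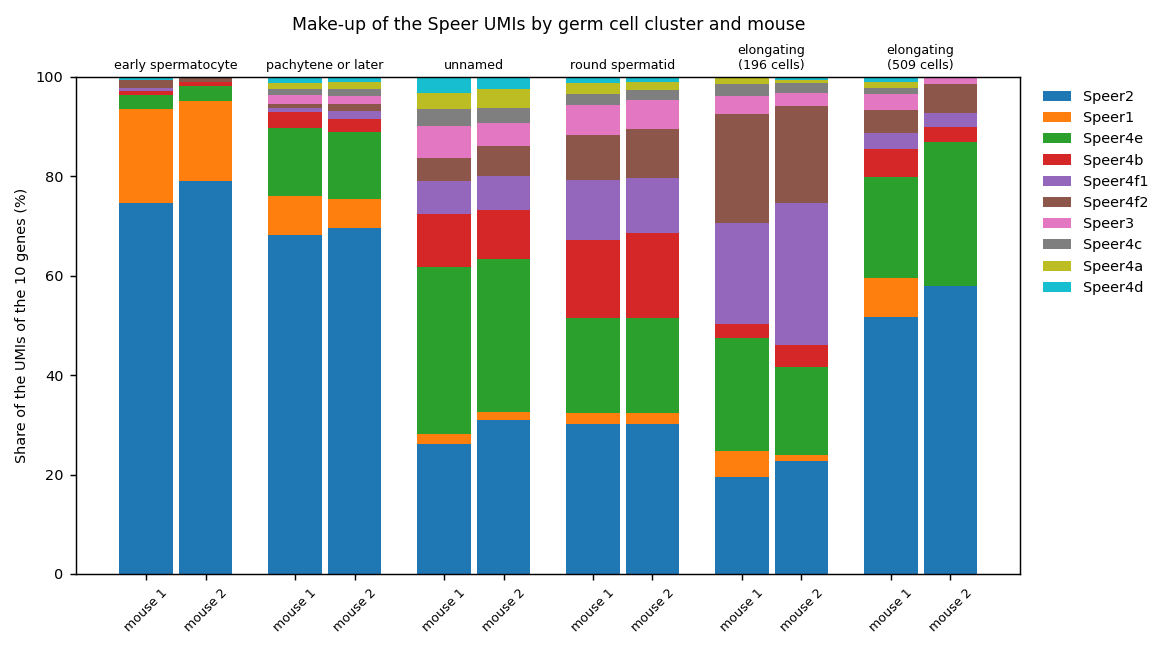
Share of the UMIs of the 10 Speer genes (y axis, percent) held by each gene (colours), in each germ cell cluster and mouse (x axis). Speer2 and Speer1 make up over 93% of the bars of early spermatocyte-like cells and about 30% of those of the unnamed cluster.

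The other 8 genes were nearly absent from early meiosis. In early spermatocyte-like cells they held only 9 UMIs in mouse 1 and 15 in mouse 2, which is 8.32 and 6.19 CPM for all 8 together. This sum was 81.0 and 85.6 CPM in pachytene or later cells, 330 and 276 in the unnamed cluster and 161 and 158 in round spermatid-like cells. Both mice showed the same order, and the unnamed cluster was the highest in each.

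Speer4e was the most abundant of these in UMIs. It had 3.70 and 3.72 CPM in early spermatocyte-like cells, 46.1 and 47.0 in pachytene or later cells, 155 and 125 in the unnamed cluster, and 45.4 and 44.7 in round spermatid-like cells, in mouse 1 and mouse 2. In the elongating clusters it had 14.5 and 9.55, then 5.08 and 6.43. The unnamed cluster was 3.36 and 2.67 times the next highest, with no overlap of the intervals.

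Speer4a, Speer4c and Speer4d followed the shape of Speer4e at lower levels. Speer4c and Speer4d share windows with Speer4e transcripts, so their likeness to Speer4e carries the counting limit given above. Speer4a had 14.6 and 15.4 CPM in the unnamed cluster against 3.93 and 4.83 in pachytene or later and 5.09 and 3.63 in round spermatid-like cells. Speer4c had 16.3 and 12.2 in the unnamed cluster, 4.60 and 4.96 before it and 5.33 and 5.12 after it. Speer4d had 14.8 and 10.1, 4.12 and 3.76 before and 3.01 and 2.31 after. For all 3 the unnamed cluster stood above its neighbours in each mouse beyond the Poisson intervals. Speer4a and Speer4c had 0 UMIs in early spermatocyte-like cells of either mouse. Taken against the floor of 3 counts over both mice (0.856 CPM), pachytene or later cells had at least 5.02-fold higher Speer4a and at least 5.55-fold higher Speer4c.

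Speer3 rose with the Speer4 genes, not with Speer2, its nearest relative by coding sequence. Its UMIs in early spermatocyte-like cells were 0 in mouse 1 and 1 in mouse 2. Its level was 5.94 and 5.23 CPM in pachytene or later cells, 28.9 and 19.3 in the unnamed cluster and 14.6 and 13.5 in round spermatid-like cells. Relative to the pachytene cluster the unnamed cluster was higher by 2.14 on the log2 scale (SE 0.24, edgeR adjusted p = 5.6e-08), where Speer2 and Speer1 fell. The 2 genes with a promoter window of the first kind, Speer2 and (at its first start) Speer1, were those that fell at this step, and the 8 genes without one rose. This match rests on the first Speer1 start. At its second start Speer1 has a window of the second kind, and among the genes with such a window it alone fell. That second window ends at base 11341510, next to the GENCODE start of the gene at base 11341516. The match is a description of 10 related genes, and a role of the promoters was not tested.

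Speer4b, Speer4f1 and Speer4f2 were nearly as high in round spermatids as in the unnamed cluster. Speer4b had 10.8 and 9.39 CPM in pachytene or later cells, 48.6 and 40.9 in the unnamed cluster and 37.5 and 39.6 in round spermatid-like cells. Speer4f1 had 2.87 and 5.37, then 30.9 and 27.6, then 28.7 and 25.8. Speer4f2 had 2.68 and 5.10, then 21.4 and 24.7, then 21.5 and 22.8. In each mouse the intervals of the unnamed and the round spermatid-like cluster overlapped for all 3 genes.

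For Speer4f1 and Speer4f2, no change passed the test as spermatids began to elongate, under TMM scaling. In the elongating cluster of 196 cells Speer4f1 had 13.0 and 15.6 CPM and Speer4f2 14.0 and 10.6, while Speer4b had 1.93 and 2.48. Of the UMIs of Speer4b and Speer4f1 together, Speer4b made up 56.6% (95% exact binomial interval 50.7 to 62.5) in round spermatid-like cells of mouse 1 and 60.6% (55.6 to 65.5) in those of mouse 2. In the elongating cluster of 196 cells it made up 12.9% (3.63 to 29.8) and 13.7% (5.70 to 26.3). The shift was in the same direction in both mice and beyond the intervals. In the larger elongating cluster, Speer4f1 was at 0.846 and 0.643 CPM and Speer4f2 at 1.13 and 1.29.

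**Figure D3:**
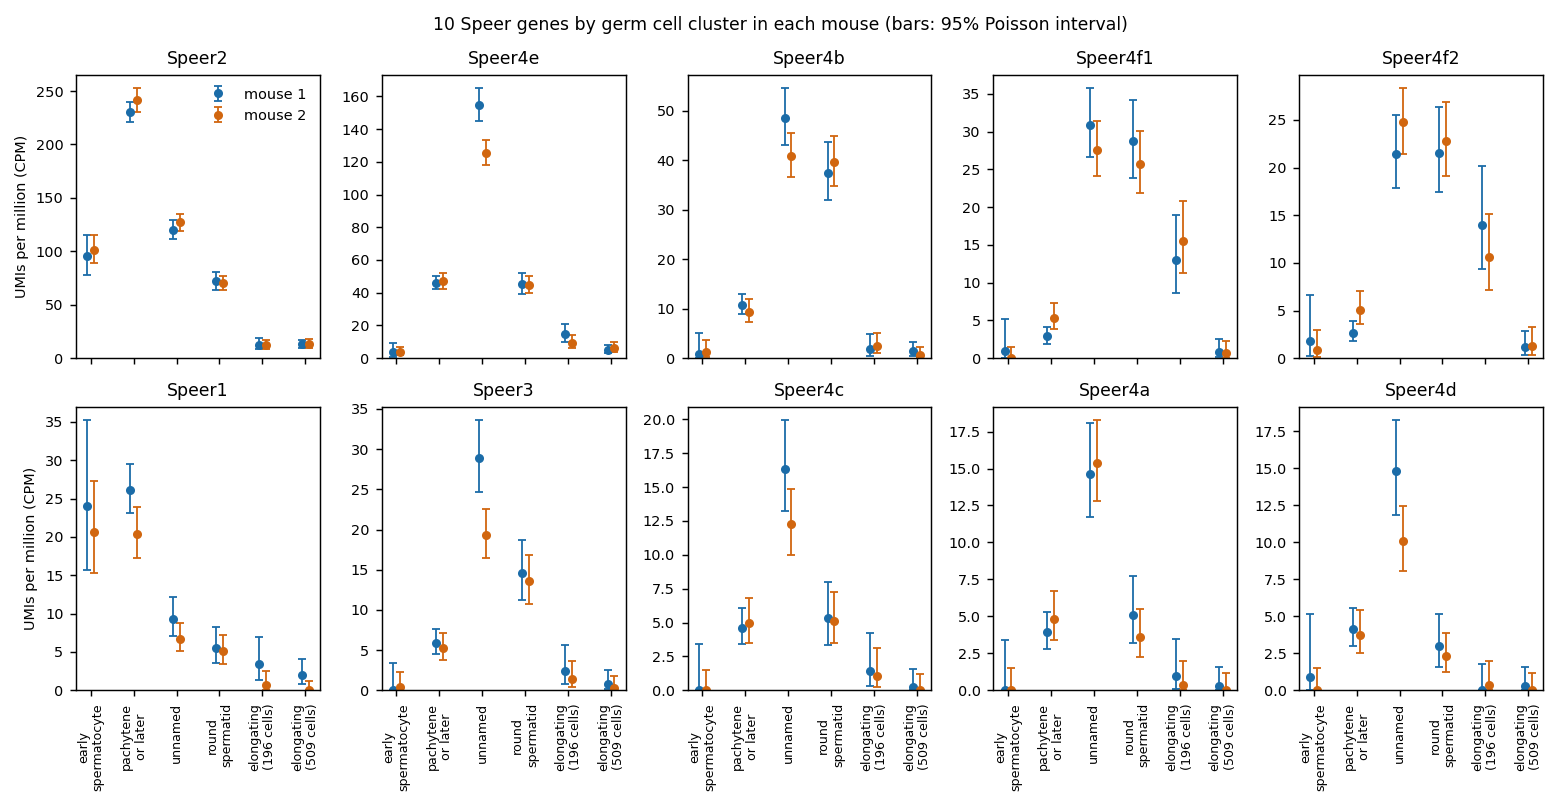
Level of each of the 10 Speer genes (y axis, CPM, linear and from 0, scaled per panel) in the 6 germ cell clusters in order of pseudotime (x axis), as points for mouse 1 (blue) and mouse 2 (orange) with 95% Poisson intervals. Speer2 and Speer1 are high in the first 2 clusters, the unnamed cluster is highest for the other 8 except Speer4f2 in mouse 1, and Speer4f1 and Speer4f2 are still at 10.6 to 15.6 in the elongating cluster of 196 cells.

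The pachytene cluster was not uniform, and its shallow cells differed from its deep ones. Cells below and above the median depth of their own mouse (19812 and 22017 UMIs) were compared within it. Speer4e was at 152 and 155 CPM in the shallow cells of mouse 1 and mouse 2 and at 18.2 and 14.1 in the deep cells. Each of the other 7 late genes was also higher in the shallow cells of both mice, for example Speer4b with 30.7 and 32.2 against 5.57 and 2.46. Speer2 went slightly the other way, with 189 and 220 against 241 and 248.5. In the unnamed cluster the same split gave Speer4e levels of 189 and 143 in shallow cells and 133 and 116 in deep ones. The sum of the 10 genes was 470 and 512 CPM in shallow and 302 and 298 in deep pachytene cells. It was 528 and 437 in shallow and 417 and 394 in deep cells of the unnamed cluster. Among shallow cells the unnamed cluster was thus the higher in mouse 1 and the pachytene cluster in mouse 2. The pachytene level of the late genes therefore averages cells with much and little of these RNAs, and what else distinguishes those cells was not tested. Early spermatocyte-like cells were not uniform either. Speer2 was at 20 and 46.9 CPM in their shallow cells, in mouse 1 and mouse 2, and at 124 and 125.8 in their deep cells. Those shallow cells held only 14 and 48 UMIs of all members together. The early level of Speer2 given above is thus an average over cells that differed with depth, and the cause was not tested.

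Along pseudotime, cut into 10 bins of about equal cell number, the late genes were higher in the second bin than in the first. In this bin, where 100% of the cells of both mice came from the pachytene cluster, Speer4e was at 106 and 122 CPM. In the first bin it was at 6.19 and 5.46. It did not rise steadily, with 86.9 and 85.6 in bin 3 and 120 and 111 in bin 4. Whether the second bin mainly holds the shallow pachytene cells described above was not tested. The sum of the 10 genes was highest in bin 4 in mouse 1 (423 CPM) and in bin 2 in mouse 2 (462 CPM), and lay between 398 and 462 in bins 2 to 4 of both. In bin 10 it was 24.8 and 22.9.

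**Figure D4:**
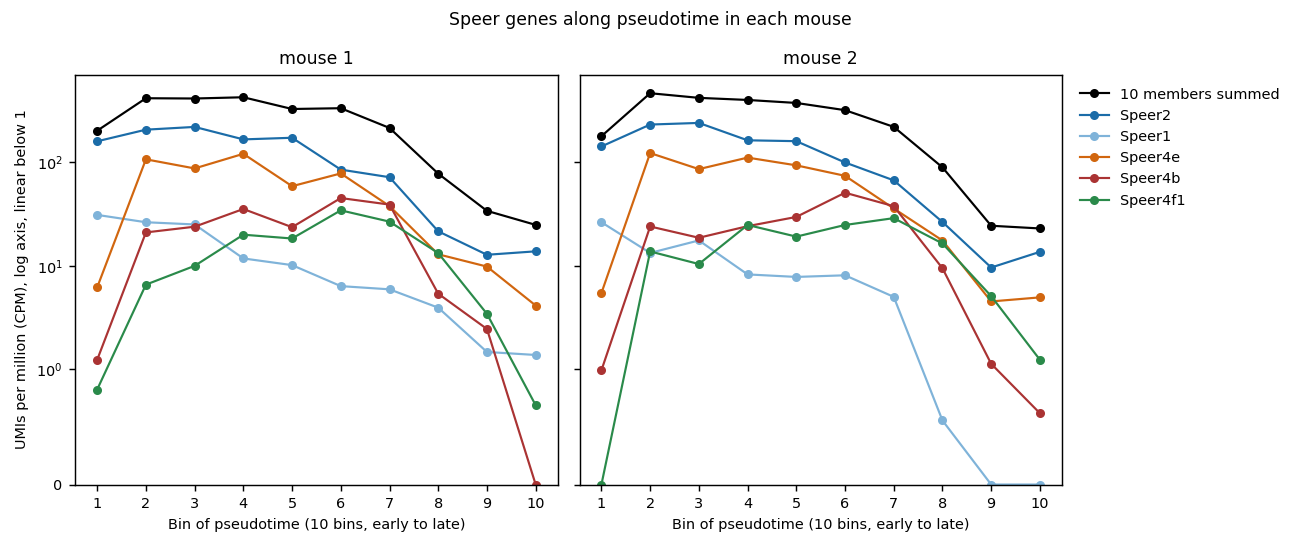
Level of the 10 Speer genes summed and of 5 of them (y axis, CPM, log scale that is linear below 1) in 10 bins of pseudotime from early to late (x axis), in mouse 1 (left) and mouse 2 (right). The sum stands at 398 to 462 in bins 2 to 4 and falls to 24.8 and 22.9 in bin 10, and Speer1 falls from the first bins while Speer4b and Speer4f1 stay high to bin 7.

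The steps between successive clusters were tested with edgeR on UMIs summed per cluster and mouse, over 14136 rows, and all 10 genes passed the filter on low sums. From early to pachytene or later cells, 9 of the 10 genes were higher and Speer1 did not pass, where 25.8% of all rows were higher and 24.4% lower. The call of Speer4f2 was lost with DESeq2. The median log2 change was 3.88 for the genes (2.92 with Speer4a and Speer4c, which had no UMI in early cells, set at their bounds) and 0.01 for all rows. For all rows it was -0.30 with DESeq2 and -0.23 when scaled by total UMIs, so the size of these changes depends on the scaling. Fitted changes of genes with few early UMIs carry wide errors: the CPM ratio over both mice was 12.5 for Speer4e (13 early UMIs, 95% interval 7.28 to 23.6) and 19.8 for Speer3 (1 early UMI, 3.47 to 789). From pachytene or later cells to the unnamed cluster 8 were higher and 2, Speer1 and Speer2, lower, where 31.8% of all rows were higher and 30.9% lower. Log2 changes of the 8 ranged from 1.62 (Speer4c) to 2.92 (Speer4f1).

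From the unnamed cluster to round spermatid-like cells, 5 genes were lower, where 20.2% of all rows were lower. These were Speer2, Speer4e, Speer4c, Speer4a and Speer4d, with log2 changes of -0.55 to -1.97. Speer4b, Speer4f1 and Speer4f2 had changes of 0.04, 0.14 and 0.19, Speer1 of -0.33 and Speer3 of -0.52, none past the threshold. With the mouse as a block Speer3 was called lower here (-0.49, edgeR adjusted p = 0.016). From there to the elongating cluster of 196 cells 7 genes were lower and 0 higher, where 20.9% of all rows were lower and 23.4% higher. With DESeq2 the calls of Speer4c and Speer4d were lost. Speer4b changed most, by -3.58 (SE 0.31, edgeR adjusted p = 1.5e-09), whereas Speer4f1 (-0.40, SE 0.25), Speer4f2 (-0.36, SE 0.26) and Speer1 (-1.0, SE 0.60) did not pass.

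Into the larger elongating cluster Speer4f1 fell by 3.65 and Speer4f2 fell by 2.72 on the log2 scale (SE 0.50 and 0.46, edgeR adjusted p = 3.2e-06 and 4.0e-05), where 23.3% of all rows were lower. Speer2 was called higher there by 0.65 (edgeR adjusted p = 0.022), where 16.4% of all rows were, although its CPM hardly moved. This call depends on the scaling. DESeq2 kept it (0.88, adjusted p = 0.0028). TMM, which sets most genes to no change, gave a median log2 change of 0.00 over all rows at this step, and scaling by total UMIs gave -0.60. By total UMIs Speer2 was not called (0.05), and Speer4e (-1.03) and Speer4c (-2.83) were called lower beside Speer4f1 and Speer4f2. Scaling by totals also shifted the median of all rows from -0.06 to -0.58 at the step before, where it called all 10 genes lower, Speer4f1 and Speer4f2 included. Of the 14136 rows, 5573 were called lower at that step by totals and 2950 under TMM. At the last step 5173 were lower by totals and 3296 under TMM. The share of higher calls among all calls went from 52.9% to 30.5% at the step before and from 41.3% to 14.3% at the last step.

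**Figure D5:**
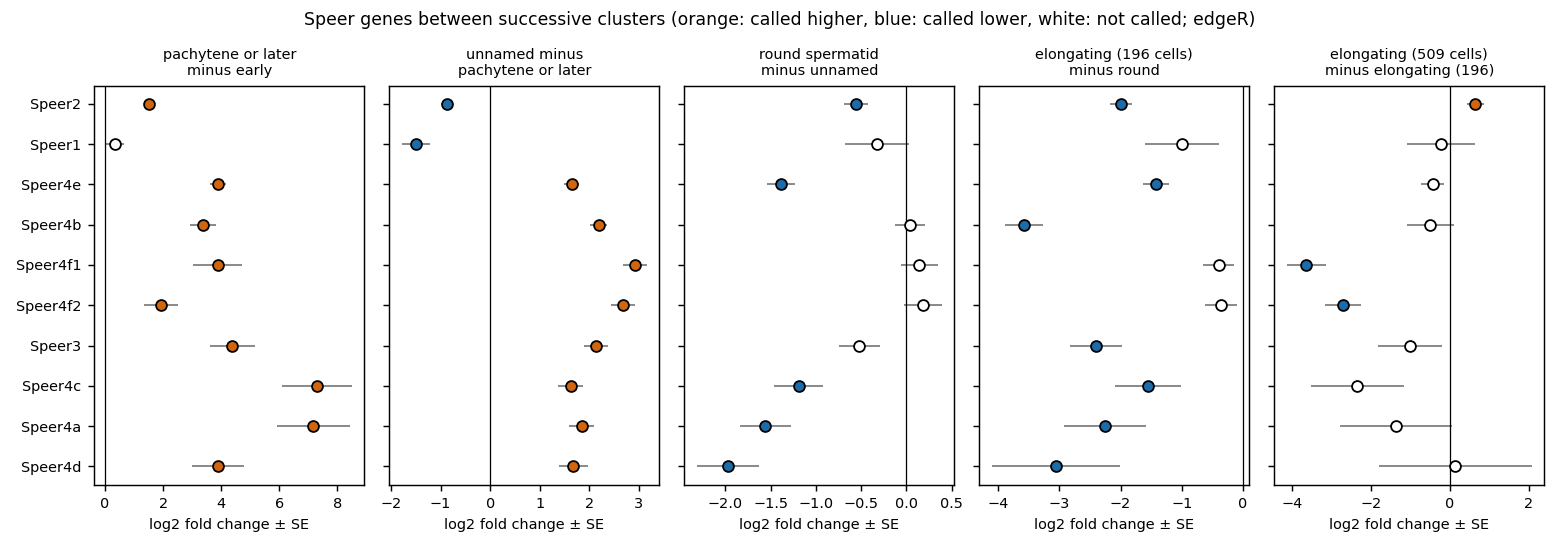
Log2 fold change with its standard error (x axis, scaled per panel) of each Speer gene (y axis) between successive clusters, from edgeR with TMM scaling. Filled points passed the adjusted threshold of 0.05 (orange higher, blue lower) and white points did not, the points of Speer4a and Speer4c in the first panel rest on 0 UMIs in early cells, and in the second panel Speer2 and Speer1 lie left of 0 and the other 8 right of it.

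Over broader groups, with both spermatocyte-like clusters joined and the unnamed cluster kept apart, 6 genes were higher and 2 lower in round spermatid-like than in spermatocyte-like cells, where 38.2% of the 14298 rows tested were higher and 40.5% lower. Speer4f1 (log2 change 3.32, SE 0.24), Speer4f2 (3.05, SE 0.23) and Speer4b (2.45, SE 0.19) changed most. Speer3 (1.86), Speer4c (0.70) and Speer4e (0.50) were also higher, and Speer1 (-1.82) and Speer2 (-1.28) were lower. Speer4a (0.55) and Speer4d (-0.05) did not pass. The median was 0.62 against -0.11 for all rows, and most rows were called here. These changes depend on where the unnamed cluster is placed. Counted with the spermatocytes, it turned Speer4e to a called change of -0.52 and Speer4c to -0.33, not called, ended the call of Speer3 (0.48, edgeR adjusted p = 0.071) and made Speer4d lower (-1.10, edgeR adjusted p = 0.0074). Speer4f1, Speer4f2 and Speer4b stayed higher in that setting, by 1.28, 1.26 and 1.04. Speer4c and Speer4e were not called when UMIs were scaled by totals, nor was Speer4c with DESeq2 or 10 clusters.

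Elongating or condensing spermatid-like cells, both clusters joined, had less of 9 genes than round spermatid-like cells, where 27% of all rows were lower, and of none more. Log2 changes ran from -1.06 (Speer4f2) to -3.75 (Speer4b), and Speer1 (-1.06, SE 0.53) did not pass. With the mouse as a block Speer1 was called lower (-1.09, edgeR adjusted p = 0.021). Against spermatocyte-like cells 7 genes were lower, where 42.3% of all rows were, and 2 were higher, where 41.1% were. Speer3 (-0.89) did not pass, but was called lower with the mouse as a block (-0.88, edgeR adjusted p = 0.039). The 2 higher genes were Speer4f1 (2.15, SE 0.27) and Speer4f2 (1.99, SE 0.27). Their calls were lost (0.11 and 0.20) if the unnamed cluster was counted with the spermatocytes.

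Between the mice, levels mostly agreed within counting error. Of 35 ratios with enough UMIs, 28 had an interval that held 1, and mouse 2 was lower beyond it in 5 and higher in 2. The lower ones in the unnamed cluster were Speer4e (ratio 0.810, interval 0.740 to 0.886), Speer4b (0.841, 0.717 to 0.988), Speer3 (0.668, 0.535 to 0.834) and Speer4d (0.681, 0.499 to 0.930). Speer1 (0.780, 0.635 to 0.955) was lower in the pachytene cluster. The sum of the 10 genes was also lower in mouse 2 in the unnamed cluster (0.890, 0.846 to 0.936). The ratios higher in mouse 2 were Speer4f1 (1.87, 1.13 to 3.11) and Speer4f2 (1.90) in the pachytene cluster. With 1 library per animal no test between the mice was made.

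Over the 12 sums of 6 clusters and 2 mice, Pearson correlations of log2(CPM + 1) were computed as a description. The 12 points share libraries and depth. Speer1 and Speer2 had r = 0.877 with each other. Among the other 8 the r ranged from 0.591 to 0.994, and between Speer1 and the 8 from -0.12 to 0.413. Speer2 was less apart, with r from 0.110 to 0.705 (median 0.551) with the 8, its highest with Speer4d above the lowest among the 8. The genes most like the summed family, by r over the same log2 values of these 12 sums and among 10395 genes, were Drc1, a part of the dynein regulatory complex of the flagellum (0.997), Zpbp2, an acrosome protein (0.994), Spata1 (0.993), Ppp6c, a phosphatase catalytic subunit (0.993), and Galnt3, an enzyme of O-linked glycosylation (0.992).

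Lists of other genes were set beside the family, namely the Dlg genes and a list of other testis genes that, like Speer, are multicopy or that are fast-evolving. Of the Dlg genes, Dlg5 was highest in pachytene or later cells with 9.86 and 9.26 CPM, against 0.695 and 1.16 in round spermatid-like cells, and was lower in the latter (log2 change -2.80, SE 0.38, edgeR adjusted p = 8.6e-06). Dlg1 rose by 2.97 (SE 0.29) and Dlg3 by 5.67 (SE 0.66) in the same comparison, Dlg2 (-0.34) did not pass and Dlg4 had too few UMIs. Dlg3 had 3.71 and 5.45 CPM in round spermatid-like cells and at most 0.192 in earlier clusters. Its spermatocyte-like level rests on 2 UMIs in pachytene or later cells of mouse 1 and 0 elsewhere, so the size of its rise is uncertain. In elongating against round spermatid-like cells only Dlg1 passed (-1.84). Of 30 other multicopy or fast-evolving testis genes such as Sly, Ssxb1 and Cypt1, 14 were tested: 11 were higher and 0 lower in round spermatid-like than in spermatocyte-like cells, with a median log2 change of 4.40, where 38.2% of all rows were higher, 40.5% were lower and the median was -0.11. In elongating against round spermatid-like cells 5 of them were higher and 4 lower, with a median of -0.07, where 28.2% of all rows were higher and 27% lower, so that these counts were near the shares over all rows. The listed genes that were not tested did not pass the filter on low sums. A gene nearly silent in spermatocyte-like cells can pass this filter through the later groups alone. The counts and medians of the list are therefore a description only. The Speer genes lie on chromosomes 5 and 16, and the chromosomes of the listed genes were not examined. The paper describes the X and Y chromosomes as silenced in meiotic prophase, and whether this bears on the list was not tested.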

How the data were processed

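Testes of 2 wild-type mice gave 1 library each. Reads were counted by the authors with cellranger 2.0.0 and bcl2fastq 2.17.1.14 against a repeat-masked GRCm38 with Ensembl annotation and added repeat sequences, and combined both mice after downsampling of reads. The deposited values are whole UMI counts per gene and cell. The ending number of each barcode was taken as the mouse; 0 barcodes were shared. Masking and the removal of reads that match several genes can lower the counts of alike copies. The members, lists and tests were chosen with earlier results of these data known. The 10 members are the rows with the most UMIs, all of which are named; genes of like pattern are the 5 with the highest r and at least 200 UMIs.

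Counts scaled to the median depth were clustered by K-means (K = 9, 10 components, seed 42) over 27776 rows without the Speer rows; names need 3 markers at 1.5 times the level of all cells, so they are rebuilt and may differ from those of the study. No cells were filtered out. Scrublet in scanpy 1.11.5 called 25 cells (0.980%) as doublets, which were kept. UMIs summed per mouse and group were tested with the quasi-likelihood test of edgeR 4.0.16 (TMM, filterByExpr, Benjamini-Hochberg over all rows, threshold 0.05) in R 4.3.3. The procedure was tested on simulated data with few changed rows and unpaired sums, which does not bear on the choice of scaling or the pairing by mouse. p-values measure the spread between these 2 animals. Mouse numbers pair the sums, since each mouse gave every group (same-mouse deviations correlated at 0.123 to 0.182). DESeq2 1.42.0 and other settings served as alternatives. The rest was done in Python 3.11.15 (biopython 1.88, pandas 2.3.3, scipy 1.17.1). Positions and transcripts came from GENCODE on GRCm38, promoters from RefSeq on GRCm38.p6 (all 10 genes matched). Identities are over the aligned bases of pairwise alignments, global for coding sequences and local for promoters.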

Additional observations from a re-analysis of the deposited data

Results flagged for a closer look

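The 4 Speer rows outside the 10 genes carried UMIs above the limit of 3 counts that a count of 0 allows. Speer5-ps1, annotated as a transcribed processed pseudogene on chromosome 10, held 824 UMIs, more than 6 of the 10 genes. It was highest later than any of them, with 51.7 CPM in mouse 1 and 45.6 in mouse 2 in the elongating cluster of 196 cells. Its levels were 34.3 and 34.3 in round spermatid-like cells, 12.8 and 12.7 in the unnamed cluster, 2.11 and 2.41 in pachytene or later cells, and 1.41 and 0.643 in the larger elongating cluster. Speer9-ps1 (chromosome 7, 208 UMIs) varied less, with 2.97 and 3.49 CPM in pachytene or later cells, 4.42 and 6.24 in the unnamed cluster and 5.56 and 4.62 in round spermatid-like cells. Speer6-ps1 (chromosome 13) held 10 UMIs and Speer4cos 9. The strand of Speer4cos is opposite to that of Speer4c. None of these differences was tested.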

How the results depend on the processing

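The number of genes called kept within 1.5 times under every alternative run, for the 3 broad comparisons and the 5 steps. This measure says little, since most of the 10 genes were called at first in most comparisons. It also adds higher and lower calls together, so the genes called could change while it held, as at the last step by total UMIs. With the mouse as a replicate block, which the pairing of the sums warrants, 8, 10 and 10 genes were called in the 3 broad comparisons in place of 8, 9 and 9 (Speer1 and Speer3 were gained), and 1 gene was gained over the 5 steps. These gains are not set against the calls over all rows with the block and are not read as particular to the Speer genes. Recomputed log2 changes counted as unchanged if they kept direction and side of the threshold, or direction alone with 1 mouse left out. Of 330 between broad groups, 303 were unchanged, as were 135 of 150 between steps. Those that reversed between round spermatid-like and spermatocyte-like cells were Speer4e (-0.52), Speer4c (-0.33) and Speer4a (-0.65) with the unnamed cluster counted as spermatocytes, and Speer4d, not called at first, at 0.0454 without mouse 1 (-0.0107 without mouse 2), 0.0646 with DESeq2, 0.0288 without a filter and 1.52 with the unnamed cluster counted as round spermatids. By total UMIs without TMM, an alternative chosen after seeing the data as were the steps, Speer4b (-0.21), Speer4f1 (-0.11) and Speer4f2 (-0.061) reversed from the unnamed to the round spermatid-like cluster and Speer4d (-0.38) at the last step; none of these 4 was called in either setting. With either mouse left out, the summed CPM is that of the other mouse, or 409 to 460 in the unnamed cluster and 294 to 318 in spermatocyte-like cells. Thinning to 5000 UMIs lowered the mean share of cells with a Speer UMI from 90.4% to 69.3% in spermatocyte-like, 99.6% to 87.5% in unnamed, 97.5% to 69.7% in round and 33.8% to 14.3% in elongating spermatid-like cells. By bins of pseudotime the highest sum of mouse 2 lay in the place of the 2nd cluster (pachytene) in place of the 3rd (unnamed). Genes with under 5 UMIs per sum, as most late genes in early and condensing cells, carry wide errors.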
